A study of Homo sapiens with 6 samples.

Results

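The cathepsins are the proteases of the lysosome, and 10 of their genes were followed here out of 19740 genes with a symbol on the array: CTSA, CTSB, CTSC, CTSD, CTSF, CTSH, CTSL, CTSO, CTSV and CTSZ. The members were set by gene name, with earlier results of these data known. Every probe whose RefSeq accession belongs to them was used, which gave 13 probes (3 for CTSC, 2 for CTSA and 1 for each other gene). The samples were 6 one-colour Agilent whole-genome arrays of total RNA from CAL-27, an established cell line of human tongue squamous carcinoma. In 3 samples the cells carried a short hairpin RNA against XBP-1s (shXBP-1s), and in the other 3 a control hairpin (shCtrl); the study describes the cells as stably transduced and the labels call it a transfection. No other treatment or time is given for either group, and a single hairpin name stands for each. XBP-1s is the transcription factor made when IRE1, a stress sensor of the endoplasmic reticulum (ER), splices the XBP1 mRNA during the unfolded protein response. Nothing in the labels says that the 3 samples of a group came from separate cultures, so the p-values below measure the spread between these samples, which may be technical.

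Cathepsins are made as inactive precursors in the ER, carry mannose 6-phosphate, and are delivered by receptors to acidic endosomes and lysosomes, where removal of the propeptide activates them. Most are papain-like cysteine proteases (CTSB, CTSC, CTSF, CTSH, CTSL, CTSO, CTSV and CTSZ), whereas CTSD is an aspartic protease and CTSA a serine carboxypeptidase. Cystatins and some serpins inhibit the cysteine members, and in squamous carcinoma the family is best known for matrix breakdown and for cutting antigens and the invariant chain.

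The targeted gene was checked first. XBP1 signal was 2536.2, 2743.4 and 2766.0 in shCtrl and 695.4, 617.2 and 551.0 in shXBP-1s. The groups were far apart, and the fall of 2.39 on the log2 scale (SE 0.04) had a limma adjusted p of 2.81e-07. Whether the probe separates spliced from unspliced XBP1 mRNA was not tested. All levels below are log2 of the signal minus the 75th percentile of its array, which was 687.4 to 761.3 in shCtrl and 792.0 to 983.4 in shXBP-1s. Between 82.1% and 84.8% of spots were well above background. The arrays of shCtrl replicates 2 and 3 came from scan 1, whereas shCtrl replicate 1 and all 3 shXBP-1s arrays came from scan 2, so values within scan 2 compare 1 shCtrl array with 3. All 7 squamous epithelial markers were tested and well above background on every array.

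All 13 cathepsin probes were well above background on all 6 arrays, none was saturated, and all were tested, each as 1 spot per array. At a Benjamini-Hochberg adjusted p below 0.05 in limma, 5 probes were lower in shXBP-1s, where 23.3% of the 27624 tested probes were. Another 5 were higher, where 18.4% of all tested probes were. With a minimum of 2-fold added, 3 probes were lower (2.61% of all probes) and 1 was higher (2.29% of all probes). The 5 lower probes and 7 of the other 8 had groups that did not overlap, which held in that direction for 28.5% and 23.9% of all tested probes. The median difference of the 13 was 0.08, against -0.02 over all tested probes, with a range of -1.69 to 1.52. Genes were also counted through their brightest probe, taken by the mean over all 6 arrays. Of the genes, 4 of 10 fell, 3 rose and 3 did not pass, where 27.5% of 16821 genes fell and 18.9% rose. The rises include CTSC, whose probes disagreed, and the falls include CTSD, which lost its call under 8 alternatives. By at least 2-fold, 3 of the 10 fell and 0 rose on that count, where 2.88% of genes fell and 2.3% rose. The family thus moved in both directions, with CTSF, CTSO and CTSB as its 2-fold falls and a probe of CTSC as its 2-fold rise.

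**Figure D1:**
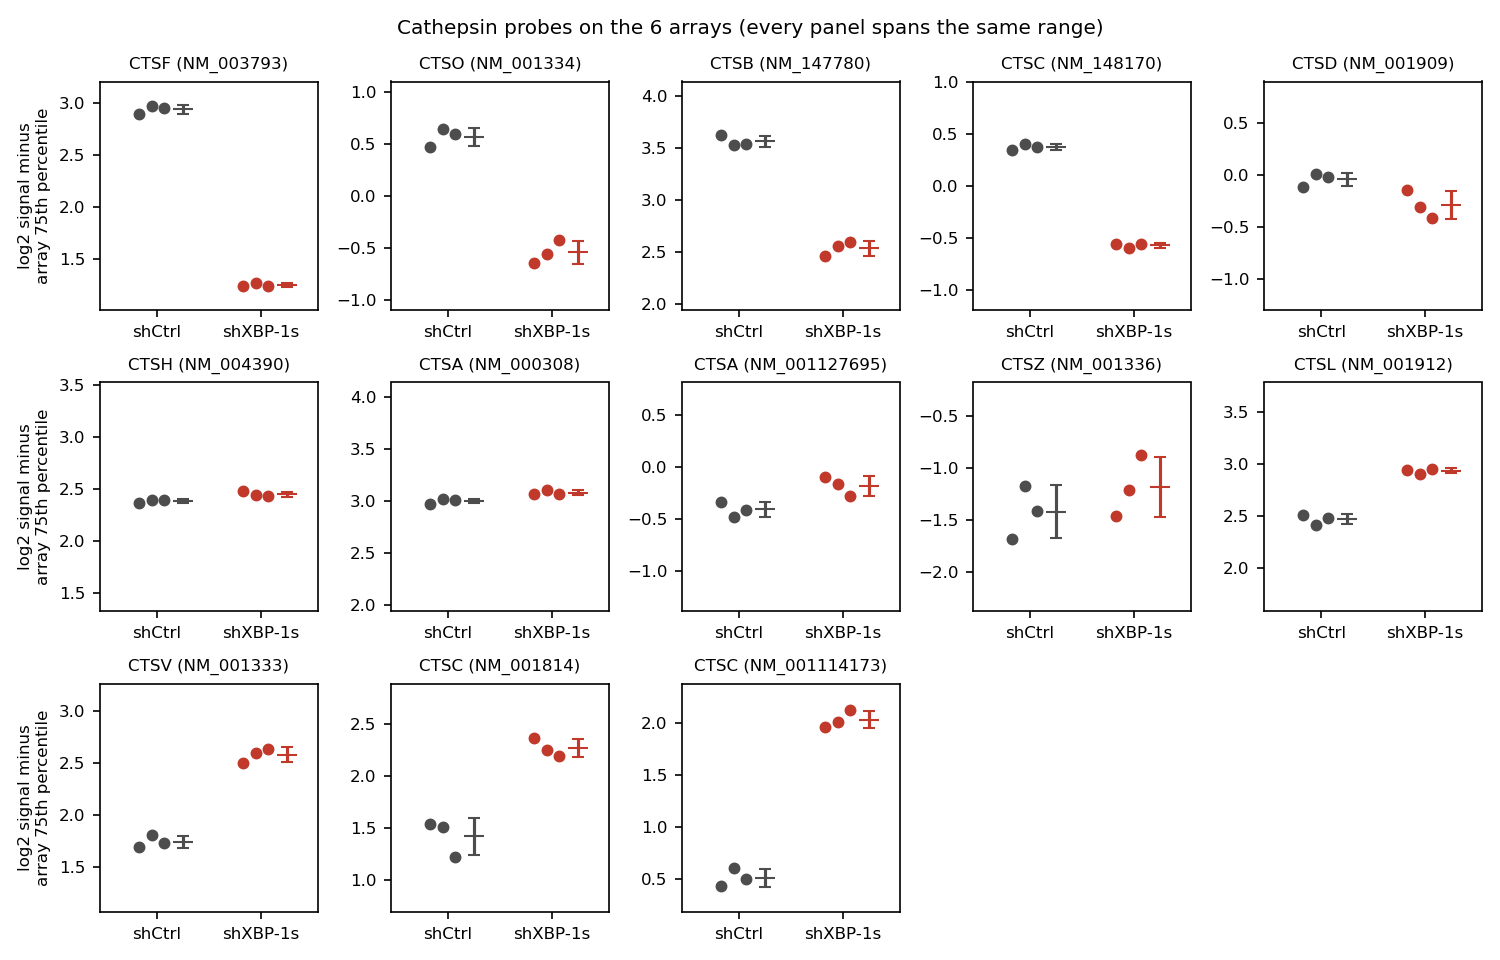
Level of each cathepsin probe (log2 signal minus the array's 75th percentile) on the 3 shCtrl arrays (grey) and the 3 shXBP-1s arrays (red), with the mean and SD of each group as bar and whiskers. Every panel spans the same number of log2 units. The groups are far apart for CTSF, CTSO, CTSB, CTSV and the 3 CTSC probes, and overlap for CTSZ.

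**Figure D2:**
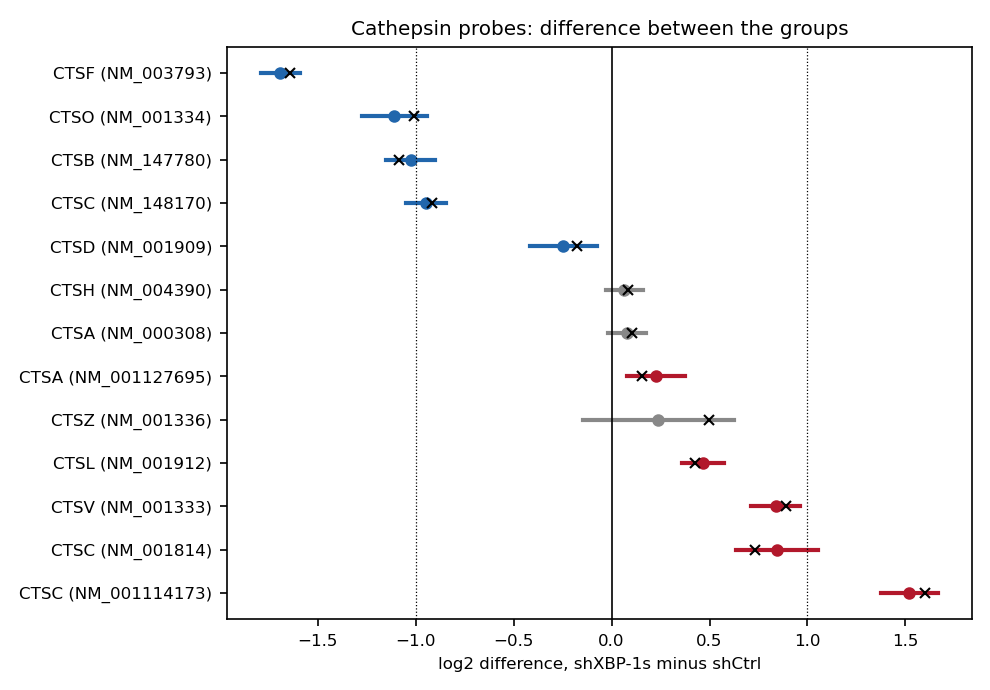
Difference of each cathepsin probe between shXBP-1s and shCtrl on the log2 scale (points) with its 95% interval from limma (lines), coloured blue or red where the adjusted p was below 0.05. Crosses show the difference within scan 2, and dotted lines mark 2-fold. CTSF lies lowest at -1.69 and the CTSC probe for NM_001114173 highest at 1.52.

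The promoters of members with a shared letter pattern near the start are shown, so that the pattern can be read beside the values of each gene. RefSeq windows (GRCh38.p14) of 250 bases before the annotated start were found for 8 of the 10 genes, CTSB and CTSO not among them. The search covered both strands for CACGTG, the palindromic core of the E-box that TFEB and related factors read in many lysosomal genes, for CCAAT, the NF-Y box, and for CCACG, which with CCAAT makes up the ER stress response element (ERSE). The XBP-1 motif that the paper reported also contains CACGTG. Which factor binds it in these windows was not tested. CACGTG was in 3 of the 8 windows and in 6.49% of 27305 promoter windows of the same length. CCAAT was in 3 of 8 (33.0% of all windows), and CCACG was in 6 of 8 (33.3% of all windows). Only the CTSC and CTSL windows held both. In CTSC, CCAAT lay 84 bases before the start and CCACG 56 and 12, and in CTSL they lay at 86 and 143. The parts were searched apart and their spacing was not tested, so whole ERSEs were not counted. The windows of CTSF, CTSA and CTSD are given with CACGTG in capitals, on the strand of the gene, at chr11:66568607-66568856 (minus strand), chr20:45891085-45891334 (plus strand) and chr11:1763928-1764177 (minus strand).
CTSF: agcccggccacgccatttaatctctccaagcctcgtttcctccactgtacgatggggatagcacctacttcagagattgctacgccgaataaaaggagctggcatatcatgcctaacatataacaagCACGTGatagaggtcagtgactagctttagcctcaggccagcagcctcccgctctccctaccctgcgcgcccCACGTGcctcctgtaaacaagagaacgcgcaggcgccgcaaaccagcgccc
CTSA: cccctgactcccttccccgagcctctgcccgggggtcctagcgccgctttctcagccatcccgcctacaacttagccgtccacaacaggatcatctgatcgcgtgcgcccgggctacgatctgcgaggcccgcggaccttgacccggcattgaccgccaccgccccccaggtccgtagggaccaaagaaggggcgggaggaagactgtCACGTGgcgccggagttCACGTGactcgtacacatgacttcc
CTSD: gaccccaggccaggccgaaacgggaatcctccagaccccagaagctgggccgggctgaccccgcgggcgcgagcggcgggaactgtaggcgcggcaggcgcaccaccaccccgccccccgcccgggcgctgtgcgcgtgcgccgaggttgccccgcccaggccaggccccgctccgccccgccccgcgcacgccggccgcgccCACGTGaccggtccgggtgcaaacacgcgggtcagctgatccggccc
CTSF and CTSA each held 2 copies, which 0.56% of all windows did, at 123 and 51 bases before the start in CTSF and at 42 and 25 in CTSA. CTSD held 1, at 47 bases. A CCACG overlapped a CACGTG in each of the 3 windows. These are matches of letters and not measured sites. Of the 3 genes, CTSF had the largest fall of the family, CTSD differed by -0.25, and the brighter CTSA probe by 0.08.

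CTSL and CTSV, close paralogs on chromosome 9, shared the longest run of letters among the 28 pairs of windows, at 23 bases, where the next longest run was 13 bases. The run lay 96 bases before the start of CTSL (chr9:87726023-87726045, plus strand) and 86 bases before that of CTSV (chr9:97039206-97039228, minus strand), and no other of the 27305 windows held it. The RefSeq window of CTSV belongs to a start inside the annotated span of the gene, whose end on that strand is at 97039643, whereas the other 7 windows end next to the annotated span. The shared run is shown with its CCAAT in capitals, and then in capitals within the CTSL window at chr9:87725869-87726118.
Shared run: gccggcacagCCAATcgcagcgc
CTSL: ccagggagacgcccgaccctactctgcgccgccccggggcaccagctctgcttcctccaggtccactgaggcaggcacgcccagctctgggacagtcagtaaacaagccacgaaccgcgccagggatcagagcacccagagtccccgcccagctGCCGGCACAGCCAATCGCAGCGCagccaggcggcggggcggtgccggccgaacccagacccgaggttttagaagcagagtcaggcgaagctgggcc
Both genes rose in shXBP-1s. The CCAAT of CTSC, the third gene with one, lay 84 bases before its start.

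**Figure D3:**
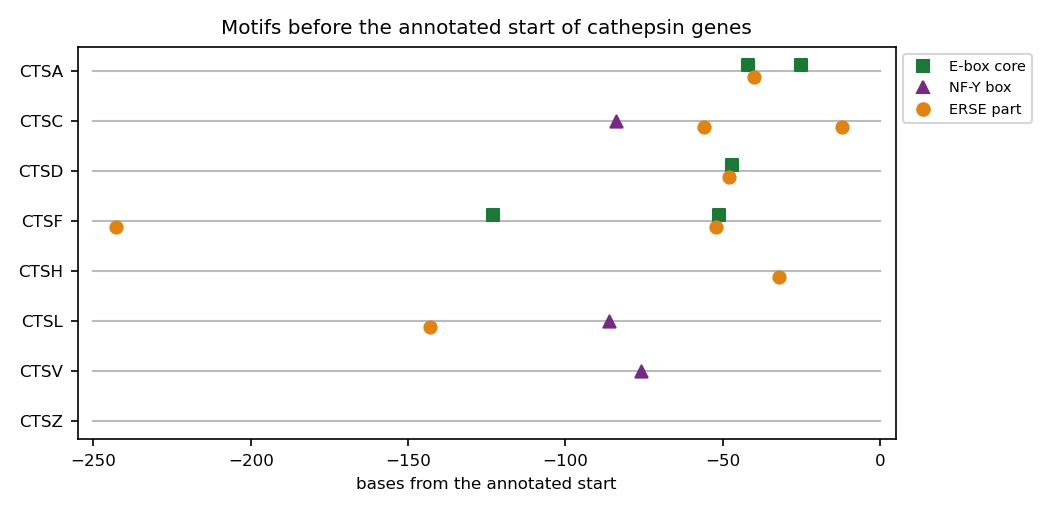
Matches of the 3 letter patterns in the 250 bases before the annotated start of 8 cathepsin genes, with the distance from the start in bases on the x axis. Green squares mark CACGTG (E-box core, also within the paper's XBP-1 motif), purple triangles CCAAT (NF-Y box) and orange circles CCACG (ERSE part). CTSF and CTSA carry 2 green squares each and CTSZ carries no mark.

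Among the cysteine endopeptidases, CTSF fell most. CTSF trims the invariant chain of MHC class II molecules, and its loss causes an adult neuronal ceroid lipofuscinosis. The gene lies at chr11:66563464-66568606. Its signal was 5102.7, 5987.3 and 5856.1 in shCtrl and 2317.7, 2154.4 and 1871.6 in shXBP-1s. Scaled to the array, the levels were 2.89, 2.98 and 2.95 against 1.24, 1.27 and 1.24. The 3 arrays of each group lay close together and the groups were far apart. The fall of 1.69 (SE 0.04, 95% interval -1.79 to -1.59) was 3.23-fold, with an adjusted p of 7.84e-07. Only 100 of the 27624 tested probes fell further, since CTSF stood at rank 101.

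CTSO, a broadly expressed and little-studied cysteine protease (chr4:155924118-155953866), fell by 1.11 on the log2 scale, or 2.16-fold. Its levels were 0.47, 0.64 and 0.59 in shCtrl and -0.65, -0.56 and -0.43 in shXBP-1s. All shXBP-1s arrays were more than 0.8 below the lowest shCtrl array. The SE was 0.07, the 95% interval -1.28 to -0.94 and the adjusted p 1.35e-05.

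CTSB (chr8:11842524-11868087) cuts within chains and also removes dipeptides from their ends. Its levels were 3.62, 3.53 and 3.54 in shCtrl and 2.46, 2.56 and 2.59 in shXBP-1s. The groups did not overlap. The fall of 1.03 (SE 0.05, 95% interval -1.15 to -0.90) was 2.04-fold, with an adjusted p of 5.78e-06. The difference sits at the edge of 2-fold: it was -0.97 after quantile normalization, -0.997 without shCtrl replicate 1 and -0.99 without shXBP-1s replicate 1, with the adjusted p below 0.05 each time.

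CTSL and CTSV moved the other way. CTSL (chr9:87726119-87731469), a broad endopeptidase of lysosomes, had levels of 2.51, 2.41 and 2.49 in shCtrl and 2.95, 2.91 and 2.95 in shXBP-1s. It rose by 0.47 (SE 0.05, 95% interval 0.36 to 0.57), or 1.38-fold, with an adjusted p of 0.000108. CTSV (chr9:97029677-97039643), a relative of CTSL found mainly in thymus, testis and skin, had levels of 1.69, 1.80 and 1.72 in shCtrl and 2.49, 2.59 and 2.64 in shXBP-1s. Its rise of 0.84 (SE 0.05, 95% interval 0.71 to 0.96) was 1.79-fold, with an adjusted p of 1.43e-05. Neither gene's groups overlapped. CTSL and CTSV are alike enough in sequence that cross-hybridization between their transcripts was not tested. A pair of probes for related pseudogenes, looked up after the values were seen, did not pass: CTSLP2 differed by 0.24 (adjusted p 0.0607) and CTSL3P by 0.04 (adjusted p 0.9).

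The 3 probes of CTSC disagreed. CTSC (chr11:88293592-88337736), also called dipeptidyl peptidase I, removes dipeptides and activates granzymes and other granule proteases. The probe assigned to NM_001814 had levels of 1.54, 1.52 and 1.22 in shCtrl and 2.36, 2.25 and 2.20 in shXBP-1s. shCtrl replicate 3 was low, and all 3 shXBP-1s arrays lay above the shCtrl arrays. The rise was 0.85 (SE 0.09, adjusted p 0.000176) and 0.74 without shCtrl replicate 3. The probe assigned to NM_001114173 rose by 1.52 (SE 0.06, 95% interval 1.37 to 1.67), from 0.43, 0.60 and 0.49 to 1.96, 2.01 and 2.12. That was 2.87-fold with an adjusted p of 2.63e-06. The probe assigned to NM_148170 went down, from 0.35, 0.41 and 0.37 to -0.56, -0.60 and -0.56. Its fall of 0.95 (SE 0.04, 95% interval -1.05 to -0.85) was 1.93-fold with an adjusted p of 3.88e-06.

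The difference between CTSC probes was tested on its own, over 4875 pairs of probes of the same gene, of which 33.2% differed at an adjusted p below 0.05. The NM_148170 probe moved by -1.79 relative to the NM_001814 probe (SE 0.11, limma adjusted p 0.000133). The NM_001114173 probe moved by 0.68 relative to it (SE 0.13, adjusted p 0.00861). All 3 accessions are transcripts of CTSC in RefSeq. Whether each probe reads its own transcript was not tested, so the total CTSC mRNA has no settled direction here.

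The other exopeptidases differed little. CTSH (chr15:78921058-78945046), an aminopeptidase, had levels of 2.37, 2.40 and 2.39 in shCtrl and 2.48, 2.44 and 2.43 in shXBP-1s. The arrays did not overlap, yet the difference of 0.06 (SE 0.04, 95% interval -0.03 to 0.16) had an adjusted p of 0.25. CTSZ (chr20:58995185-59007254), a carboxypeptidase also called cathepsin X, had levels of -1.68, -1.17 and -1.41 in shCtrl and -1.46, -1.21 and -0.88 in shXBP-1s. Its arrays overlapped and had the widest spread of the 13 probes, with SDs of 0.25 and 0.29 (n = 3 each). The difference of 0.24 (SE 0.17, 95% interval -0.15 to 0.62) had an adjusted p of 0.292, which leaves a change of up to 0.62 within its interval.

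CTSD (chr11:1752755-1763927), the main aspartic protease of lysosomes, had levels of -0.12, 0.01 and -0.03 in shCtrl and -0.15, -0.31 and -0.42 in shXBP-1s. The scaled groups nearly touched, and the signals before scaling did overlap, at 634.7, 765.1 and 742.0 against 886.6, 721.2 and 593.4. The fall of 0.25 (SE 0.07, 95% interval -0.42 to -0.08) had an adjusted p of 0.0288. The call was lost with scan as a block (-0.18, adjusted p 0.236) and on leaving out shCtrl replicate 2 (-0.22, adjusted p 0.0867), shCtrl replicate 3 (-0.24, adjusted p 0.0819), shXBP-1s replicate 2 (-0.24, adjusted p 0.0933) or shXBP-1s replicate 3 (-0.19, adjusted p 0.0768). Relative to the median of all probes, CTSD stood at -0.23 here and at 0.21 after normexp background correction, where that median was -0.41. The CTSD difference itself was -0.21 (adjusted p 0.203) after normexp and -0.18 (adjusted p 0.0366) after normexp with quantile normalization.

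CTSA (chr20:45891335-45898820) is the protective protein that holds beta-galactosidase and neuraminidase 1 in a stable complex. The NM_000308 probe had levels of 2.97, 3.01 and 3.01 in shCtrl and 3.06, 3.10 and 3.07 in shXBP-1s. Its difference of 0.08 (SE 0.04, 95% interval -0.02 to 0.18) had an adjusted p of 0.17. The NM_001127695 probe had levels of -0.33, -0.47 and -0.41 in shCtrl and -0.10, -0.16 and -0.28 in shXBP-1s. It rose by 0.23 (SE 0.06, 95% interval 0.08 to 0.37, adjusted p 0.0226), a call lost with scan as a block (0.16, adjusted p 0.212). It was also lost on leaving out shCtrl replicate 2 (0.19, adjusted p 0.0728), shCtrl replicate 3 (0.23, adjusted p 0.063), shXBP-1s replicate 1 (0.19, adjusted p 0.0712) or shXBP-1s replicate 2 (0.22, adjusted p 0.0855). The probes moved apart by 0.15 (SE 0.09), which had an adjusted p of 0.245.

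Within scan 2, all 13 differences had the same sign as over the 6 arrays, from -1.64 for CTSF to 1.60 for the NM_001114173 probe of CTSC. That comparison reuses the 3 shXBP-1s arrays and shCtrl replicate 1, so a shared sign is no independent check. The share of all tested probes that kept their sign was not counted. CTSB stood at -1.08, CTSO at -1.01, CTSV at 0.89 and CTSL at 0.43 there. The CTSZ difference was 0.50 within scan 2, against 0.24 over all arrays. For a single probe, the exact permutation test of 3 against 3 arrays, 2-sided, cannot go below 0.1, which 12 of the 13 probes reached, and CTSZ gave 0.5. Any probe whose groups do not overlap reaches 0.1. Of all tested probes, 28.5% had shXBP-1s wholly below shCtrl and 23.9% wholly above.

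The genes around the cathepsins were counted in lists, each gene by its brightest tested probe, and the counts are to be read against the 27.5% of all tested genes that fell and the 18.9% that rose. Of 4 tested cathepsins outside the 10, CTSS, a cysteine protease of antigen-presenting cells named after its value was seen, fell by 0.32 (SE 0.07, adjusted p 0.00585). The other 3 did not pass. Among 4 activators and partner enzymes, 1 rose and 3 did not pass. LGMN, the asparaginyl endopeptidase that trims cathepsin precursors, had levels of -1.31, -1.40 and -1.38 in shCtrl and -0.67, -0.88 and -0.94 in shXBP-1s. Its rise of 0.53 (SE 0.08) had an adjusted p of 0.000859. PSAP, the saposin precursor, differed by 0.15 (adjusted p 0.076), and its dimmer probe rose by 0.23 (adjusted p 0.0167). The CTSA partners GLB1 and NEU1 differed by 0.05 (adjusted p 0.358) and -0.06 (adjusted p 0.402).

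Of the 9 tested cathepsin inhibitors, 3 fell, 2 rose and 4 did not pass, with a median of -0.18. Those are 33.3% and 22.2% of the list, near the shares of 27.5% and 18.9% over all tested genes. CST6, cystatin E/M, which inhibits CTSL, CTSV and LGMN in skin, fell from 3.08, 3.16 and 3.13 to 1.61, 1.60 and 1.64. That fall of 1.51 (SE 0.04, adjusted p 1.09e-06) was the only 2-fold change in the list. CSTB, the cytosolic stefin B, fell by 0.36 (adjusted p 0.00405), a call lost with scan as a block (-0.25, adjusted p 0.0636), after normexp (-0.13, adjusted p 0.474) and after normexp with quantile normalization (-0.22, adjusted p 0.0961). SERPINB13, a serpin against CTSL named after its value was seen, fell by 0.32 (adjusted p 0.00185). CST3, the secreted cystatin C, rose by 0.40 (SE 0.05, adjusted p 0.000273), from 0.24, 0.28 and 0.28 to 0.73, 0.65 and 0.63. CST5, a salivary cystatin also named after its value was seen, rose by 0.34 (adjusted p 0.00946). It stood at -0.08 after normexp and at 0.24 after normexp with quantile normalization. CSTA, stefin A of keratinocytes, differed by -0.17 (adjusted p 0.087).

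In the mannose 6-phosphate route that carries cathepsins to lysosomes, 1 of 9 tested genes fell, 2 rose and 6 did not pass, or 11.1% and 22.2% against 27.5% and 18.9% over all tested genes. IGF2R, the large receptor for the tag, rose by 0.90 (SE 0.17, adjusted p 0.00314), from -0.55, 0.18 and 0.03 to 0.83, 0.78 and 0.74. shCtrl replicate 1 was far below the other shCtrl arrays, and the groups did not overlap. GNPTAB, which encodes the catalytic subunits of the enzyme that adds the tag, rose by 0.39 (SE 0.04, adjusted p 0.00023). The small receptor M6PR differed by 0.04 (adjusted p 0.722), the GNPTG subunit by 0.01 (adjusted p 0.877) and the uncovering enzyme NAGPA by 0.12 (adjusted p 0.1). SORT1, a sorting receptor that also carries some cathepsins and was named after its value was seen, fell by 0.79 (SE 0.07, adjusted p 4.71e-05), from -0.53, -0.49 and -0.49 to -1.17, -1.30 and -1.39.

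The other lysosomal lists were counted against the same 27.5% of tested genes lower and 18.9% higher. Of 5 other lysosomal peptidases 2 fell, SCPEP1 by 0.31 (adjusted p 0.000495) and DPP7 by 0.26 (adjusted p 0.0122), both named after their values were seen. After normexp neither was called, at -0.15 (adjusted p 0.392) for SCPEP1 and -0.22 (adjusted p 0.3) for DPP7. Among 23 tested glycosidases, sulfatases and lipid hydrolases, 4 fell (17.4%) and 7 rose (30.4%), none by 2-fold, with a median of 0.03. Lysosomal membrane proteins gave 5 falls (38.5%) and 4 rises (30.8%) of 13, and LAMP3, an inducible member of the LAMP family, was the only 2-fold change, falling by 1.15 (SE 0.06, adjusted p 5.75e-06). The probes of LAMP2, named after its values were seen, disagreed. The brightest rose by 0.63 (adjusted p 0.000376), while the others fell by 0.26 (adjusted p 0.00708) and by 1.02 (adjusted p 5.62e-05). In shCtrl, the probe that fell by 0.26 averaged 1.76 and the one counted as brightest 1.75. The shXBP-1s arrays thus decided which probe was counted for LAMP2. Of 15 subunits of the vacuolar ATPase, the proton pump that acidifies lysosomes, 5 fell (33.3%) and 1 rose (6.67%), with a median of -0.03. The 16821 tested genes had a median of -0.04 on the same count. Of the subunits that fell, ATP6V1C1, named after its values were seen, had probes that disagreed. Its brightest probe fell by 0.66 (adjusted p 0.000137) and its other probe rose by 0.23 (adjusted p 0.0157).

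**Figure D4:**
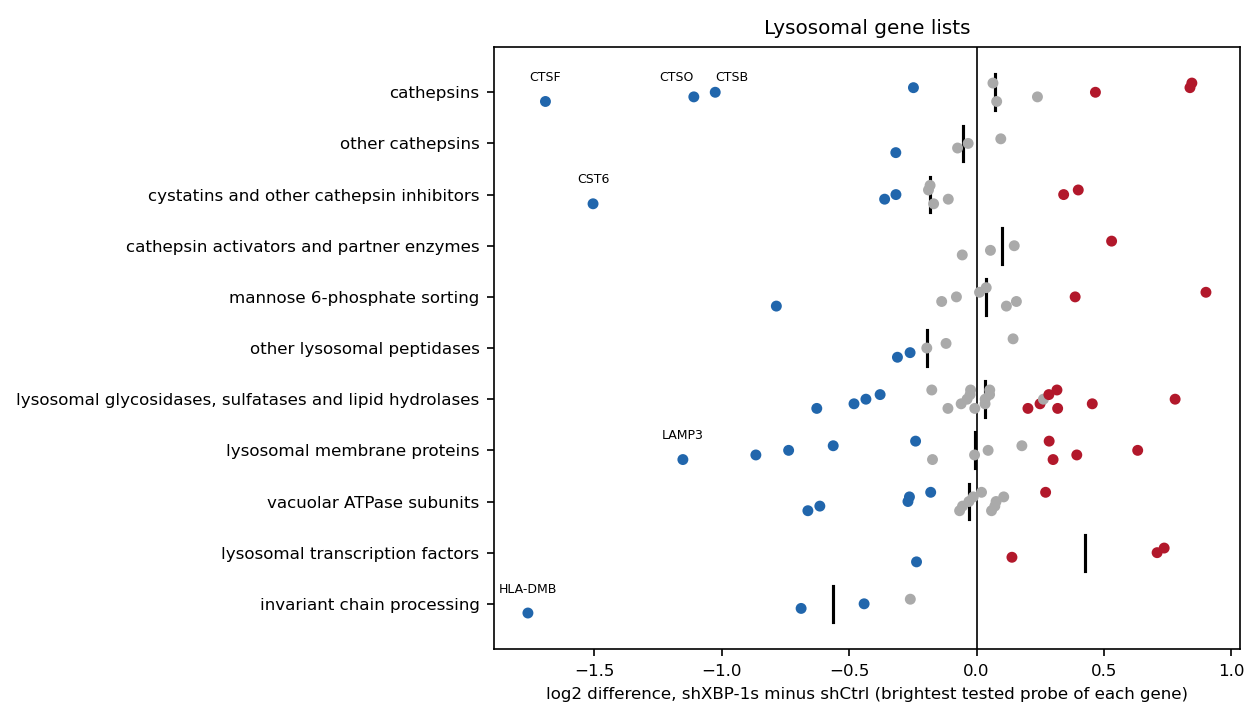
Difference of each tested gene between shXBP-1s and shCtrl on the log2 scale (points, brightest probe of each gene) in the cathepsins and 10 related lists, with the list's median as a black bar. Blue and red mark a fall or rise at an adjusted p below 0.05 and grey the rest. Names are given for changes near or past 2-fold: CTSF, CTSO, CTSB, CST6, LAMP3 and HLA-DMB, all falls.

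Of the 4 transcription factors of the family that reads the E-box of lysosomal genes, TFEB fell by 0.24 (SE 0.05, adjusted p 0.00977), and by 0.64 on its dimmer probe (adjusted p 1.5e-05). MITF rose by 0.71 (SE 0.08, adjusted p 0.000303) and TFE3 by 0.14 (adjusted p 0.0495), a call lost with scan as a block (0.08, adjusted p 0.372) and not made on its dimmer probe (0.05, adjusted p 0.442). TFEC, named after its value was seen, rose by 0.74 (adjusted p 0.0149). It stood at -0.65 after normexp and at 0.18 after normexp with quantile normalization. In the list of invariant chain processing, where CTSF, CTSL, CTSS and CTSV act, 3 of 4 genes fell, against 27.5% of all tested genes. HLA-DMB, a chain of the class II peptide exchanger, went from -1.15, -1.002 and -1.07 to -2.74, -2.85 and -2.90, a fall of 1.76 (SE 0.07, adjusted p 2.15e-06). CD74, the invariant chain itself, went from -1.72, -1.74 and -1.76 to -2.27, -2.43 and -2.58, a fall of 0.69 (SE 0.08, adjusted p 0.000336). HLA-DMA fell by 0.44 (adjusted p 0.00177), a call lost after normexp (-0.56, adjusted p 0.0572), and the thiol reductase IFI30 differed by -0.26 (adjusted p 0.0719), both named after their values were seen.

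Markers of cells that carry much cathepsin were measured beside these values. Macrophage markers, with 6 tested, summed on the linear scale to 5.32 to 7.40 in shCtrl and 5.05 to 5.22 in shXBP-1s. CSF1R rose by 1.04 (adjusted p 1.74e-05), CD14 fell by 0.84 (adjusted p 0.0011), and TYROBP rose by 0.33 (adjusted p 0.0263). TYROBP stood at -0.33 after normexp, where the median of all probes was -0.41, and at 0.23 after normexp with quantile normalization. Fibroblast markers, with 4 tested, summed to 0.922 to 1.01 in shCtrl and 0.495 to 0.542 in shXBP-1s. PDGFRB fell by 1.28 (adjusted p 9.93e-06) and COL1A1 by 0.63 (adjusted p 0.00239), while FAP rose by 1.76 (adjusted p 2.96e-05). FAP stood at -0.38 after normexp and at 0.42 after normexp with quantile normalization. Squamous markers, with 7 tested, summed to 58.6 to 60.8 in shCtrl and 69.1 to 76.2 in shXBP-1s. KRT5 rose by 1.43, KRT14 by 1.58, KRT17 by 1.53, DSG3 by 1.17 and TP63 by 0.93 (each with an adjusted p of 7.57e-05 or less). CDH1 (0.13, adjusted p 0.143) and EPCAM (0.01, adjusted p 0.881) did not pass. That made 5 of the 7 higher, against 18.9% of all tested genes. TP63, CD14, TYROBP and COL1A1 were named after their values were seen. All 6 samples were of the CAL-27 line, so the macrophage and fibroblast markers are signals within that line and count no such cells. In these bulk samples, a change in the share of cells that make a marker and in its RNA per cell cannot be told apart. The part of these markers in the cathepsin values was not tested.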

How the data were processed

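Total RNA of 3 shCtrl and 3 shXBP-1s samples was hybridized to 1 array each. The authors deposited spot intensity from Feature Extraction 11.0.1.1, background-subtracted and detrended but not normalized between arrays, and a table of log2 values, which are quantile-normalized as its equal quartiles show. The labels name RMA and describe a NimbleGen labelling kit, whereas the files are Agilent. Array annotation names hg19, and genes were named through RefSeq accessions on GRCh38.p14. The authors' methods name a two-tailed t-test at a threshold of 0.05 for experiments in general and no normalization for the arrays.

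From the processed intensity (1377 control spots of 44495, and 230 to 377 outlier spots per array, left out), log2 minus the 75th percentile of each array was taken. A probe entered the test if, in either group, all 3 arrays marked it well above background (27624 probes), and the fit used limma 3.58.1 in R 4.3.3 (trend, 2-sided, Benjamini-Hochberg). The number of arrays limits the precision. No column of per-sample values was left unused (0).

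Named genes are all cathepsin probes, XBP1, a preset set of partners, inhibitors, sorting and E-box genes, and up to 5 genes of each list with a called 2-fold change. Others are marked as named after their values were seen. The members and lists were chosen with earlier results of these data known. Alternatives covered background correction, normalization, the deposited table, filters, test, replicate and scan blocks, outlier spots, and leaving out each array. The fit was tested on simulated data. Motifs were searched with Python 3.11.15.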

Additional observations from a re-analysis of the deposited data

How the results depend on the processing

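Under 18 alternatives, CTSF, CTSO, CTSB, CTSL, CTSV and the 3 CTSC probes had their direction and an adjusted p below 0.05 each time. The counts ranged over 4 to 5 cathepsin probes lower, 4 to 7 higher, 2 to 3 lower by 2-fold and 1 to 2 higher by 2-fold. The methods' t-test on the same values called 5 cathepsin probes lower and 7 higher at their unadjusted threshold, and 4 and 5 after Benjamini-Hochberg. The count of 2 came from normexp with the 75th percentile, where CTSV reached 1.03. CTSB was below 2-fold under 5 alternatives (-0.92 at the smallest, after normexp) and CTSO under 1 (-0.997, normexp with quantile normalization). CTSD lost its call under 8 alternatives and the NM_001127695 probe of CTSA under 7, and the NM_000308 probe gained one under 4.

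Normexp with the 75th percentile moved the median of all probes to -0.41, from -0.02. It left 2448 lower and 2059 higher of all probes, against 6423 and 5093, and 314 and 159 at 2-fold, against 722 and 632, so the lower share of 2-fold calls went from 53.3% to 66.4%. Normexp with quantile normalization left 170 and 187 at 2-fold, with the median of all probes at -7e-04. There CTSF stood at -1.62, CTSO at -0.997, CTSB at -1.01 and the CTSC NM_148170 probe at -0.82. CTSL stood at 0.50, CTSV at 0.97, CTSH at 0.11 and the CTSA NM_000308 probe at 0.11. Relative to the median of -0.41 under normexp with the 75th percentile, the falls were smaller and the rises larger than relative to the median in the reported values: CTSF stood at -1.16 (against -1.67), CTSO at -0.61 (-1.09), CTSB at -0.50 (-1.004), the CTSC NM_148170 probe at -0.43 (-0.93), CTSL at 0.99 (0.49), CTSV at 1.44 (0.86), CTSH at 0.60 (0.09) and the CTSA NM_000308 probe at 0.60 (0.10). That setting also turned NEU1 to 0.046, FAP to -0.38, CST5 to -0.077, TFEC to -0.65 and TYROBP to -0.33, took LGMN to 0.24 (adjusted p 0.451) and TFEB to -0.13 (adjusted p 0.42), and ended the CTSS call (-0.42, adjusted p 0.318). After normexp with quantile normalization, FAP (0.42), CST5 (0.24), TFEC (0.18) and TYROBP (0.23) stayed higher with an adjusted p below 0.05. LGMN stood at 0.41 (adjusted p 0.00197), TFEB at -0.18 (adjusted p 0.0437) and CTSS at -0.12 (adjusted p 0.0658) there. NEU1 was 0.020 after quantile normalization and 0.0197 in the deposited values. M6PR was -0.0058 with scan as a block. Leaving out each array in turn gave -0.0208 to 0.0973 for M6PR and -0.0229 to 0.0475 for GNPTG. Without shXBP-1s replicate 2 the calls of DPP7 (adjusted p 0.0587) and TFEC (adjusted p 0.0622) were lost. TFE3 lost its call without any of shCtrl replicates 2 and 3 and shXBP-1s replicates 1, 2 and 3 (adjusted p 0.0857 to 0.174), and TYROBP without shCtrl replicate 2 or any shXBP-1s replicate (adjusted p 0.0566 to 0.0922). IFI30 passed without shCtrl replicate 3 (-0.36, adjusted p 0.0147) and CSTA without shCtrl replicate 2 (-0.22, adjusted p 0.0387). The causes were not tested. Counts in the other lists moved by over 1.5 times in 45 of 494 comparisons.

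The replicate numbers did not pair the samples: deviations of same-numbered arrays correlated at -0.02, 0.12 and -0.12. The replicate block gave 5 cathepsin probes lower and 5 higher, and 6113 lower and 5003 higher over all probes.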
